A study of Mus musculus with 16 samples.

Results

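Neutrophils sorted from the lungs of specific pathogen free (SPF) mice were compared with neutrophils sorted from the blood of SPF mice. The members are the 5 libraries whose labels give an SPF mouse and either lung (replicates 1, 2 and 3) or blood (replicates 3 and 4), of 16 libraries in the series. All 16 came from C57BL/6 mice, for which the labels give no transgene, deletion or treatment and no age. The other 11 libraries, from SPF spleen and from the blood, spleen and lung of germ-free (GF) mice, served to estimate the spread, and the GF lung and GF blood libraries (3 and 2) also served for one comparison. Cells were stained for CD45, CD11b, Ly6G and a viability dye and sorted, with a purity stated as typically above 95%. Complementary DNA was amplified from their RNA before sequencing. How the lungs were dissociated, and whether their vessels were flushed, is not given in the sources used here. SPF mice carry a microbiota without listed pathogens, and GF mice are raised without microorganisms. Nothing in the labels states that libraries of 1 group are from different mice, and the p-values therefore rest on library-to-library spread that may be technical.

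Neutrophils leave the bone marrow filled with granules of preformed antimicrobial proteins, circulate for a short time, and cross or lodge in vessel walls with the help of selectins, integrins and chemokine receptors. The lung holds many of them in its narrow capillaries, where they can be retained without inflammation. On stimulation through Toll-like receptors or receptors for interleukin 1 or tumour necrosis factor, NF-kB factors move to the nucleus and switch on cytokines, chemokines and their own inhibitors, while kinase cascades switch on immediate early genes, which need no new protein to be transcribed. Immediate early genes also respond to the handling of tissue and cells.

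The lung libraries held 504208, 897132 and 909676 reads and the blood libraries 2870559 and 3033941, so depth and tissue cannot be told apart within these 5 libraries. Levels are normalised counts, that is, the deposited value less its constant offset, and 1 read was worth 1.04 to 1.97 normalised counts in lung and 0.392 or 0.452 in blood. The Spearman correlation across genes was 0.947 between the blood libraries and 0.905 to 0.926 between lung libraries. Differences are lung minus blood on the log2(value + 1) scale from limma, with a standard error (SE) and a p adjusted over 8299 tested genes by the Benjamini-Hochberg method, and a gene passed where that p was under 0.05. A library is named by its tissue and its replicate number.

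The sorted cells carried the transcripts that mark neutrophils in all 5 libraries. The 14 neutrophil markers summed to 49171 to 69354 normalised counts in lung and to 83469 and 99380 in blood, and none was at 0 in a whole group. S100a8 and S100a9, which encode the subunits of calprotectin, measured 5550 to 13479 and 10322 to 17841 in lung, and 20731 to 26287 and 30120 to 35710 in blood. These differences, of -1.54 and -1.37, did not pass (adjusted p = 0.131 and 0.111), although both passed when the spread was estimated without the spleen libraries (0.00672 and 9.8e-06). Ly6g, a surface protein used for the sort, stood at 43.4, 51.3 and 41.6 in lung and at 170 and 149 in blood. That is lower in each lung library (-1.78, SE 0.54, adjusted p = 0.0289), although the gene that chose the cells is not counted as a finding. Of the 14 markers 5 were higher in lung (35.7%), 5 lower (35.7%) and 4 passed in neither direction, with a median difference of -0.42. Among all 8299 tested genes 12.5% were higher and 6.63% lower, and the counts of the other marker lists are to be read beside these shares. With any 1 of the 5 libraries left out Ly6g missed the threshold (adjusted p from 0.0604 to 0.186).

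Transcripts of lung structural cells were higher in the lung libraries than in blood. All 11 tested markers of lung epithelium were higher in lung, with a median difference of 5.15. Sftpc, which encodes surfactant protein C of alveolar type II cells, measured 1715, 2113 and 3178 in lung and 10.8 and 1.96 in blood (8.52, SE 0.76, adjusted p = 5.62e-06). All 8 endothelial markers (median 4.77) and 8 of 9 stromal markers (median 5.56, or 5.76 with genes at 0 reads set to their lower bound) were higher too. The other stromal marker, Acta2, the actin of smooth muscle, was lower. Sparc, a matrix protein of stroma and endothelium, had 183, 327 and 398 in lung and 0 reads in blood, at least 481-fold higher in lung. The bound divides the lung mean by 0.63 normalised counts, the level of 3 reads in the pooled blood libraries, and covers counting error only. Without SPF blood replicate 3 Acta2 did not pass (adjusted p = 0.141).

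The summed levels place these cells beside the neutrophils. The epithelial markers summed to 2771, 3895 and 5620 in lung against 53.3 and 24.7 in blood, or 0.279% to 0.593% of all normalised counts in lung. Endothelial markers summed to 621 to 919 against 33.0 and 40.4, and stromal markers to 759 to 1259 against 259 and 173. MHC class II and dendritic cell genes, 8 of 9 higher, summed to 572 to 1014 against 64.1 and 88.3. Of 13 B cell markers 9 were higher, but the summed level overlapped between the tissues (581 to 774 and 663 to 714), since it is led by Ighm, at 391 to 570 in lung and 613 to 675 in blood. The macrophage and monocyte list, leaving out the immediate early gene Nr4a1, summed to 1387 to 1501 in lung and to 1753 and 1757 in blood. With Nr4a1 it summed to 4921 to 5489 in lung and to 1824 and 1833 in blood. Without Nr4a1, 5 of its 15 measured genes had 0 reads in both blood libraries, and no gene was at 0 in all lung libraries. Of its 12 tested members 2 were higher in lung (16.7%, against 12.5% of all tested genes) and 2 lower (16.7%, against 6.63%), with a median difference of 0.73. Every lung library lay above both blood libraries for 6 of the 12 (29.6% of all tested genes) and below both for 3 (23.9%). Its alveolar macrophage part summed to 240 to 249 in lung and to 118 and 207 in blood. Lung replicate 3 had the highest and lung replicate 1 the lowest sum of epithelial markers.

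Blood libraries carried the opposite set. Of 10 tested erythroid markers 2 were lower in lung, 7 did not pass and Tfrc, the transferrin receptor that brings in iron, was higher (2.13, adjusted p = 0.0364). Tfrc, at 3.94 to 8.16 in lung, missed the threshold without SPF blood replicate 3 (0.216) or 4 (0.126) or SPF lung replicate 2 (0.106) or 3 (0.0877), and was at -0.26 with lung and blood thinned to equal depth. The erythroid markers summed to 44213 and 70624 in blood and to 477, 1142 and 1872 in lung. Hba-a1, 1 of the near-identical alpha globin genes, measured 9354 and 15436 in blood and 83.5, 211 and 359 in lung. No lung library came near a blood library, yet the 4 globin differences, of -5.81 to -6.01, did not pass, with SEs of 2.25 to 2.51 and adjusted p of 0.102 to 0.144. Hba-a1 passed when the spread was estimated from these 5 libraries alone (adjusted p = 0.0121). Their reads may be shared by the counting, and so are uncertain. Bpgm, the enzyme that makes the haemoglobin ligand bisphosphoglycerate in red cells, measured 3.94, 17.5 and 18.7 in lung and 186 and 255 in blood and passed (-4.06, SE 0.83, adjusted p = 0.00147). Platelet markers summed to 600 and 789 in blood and 140 to 187 in lung, with 7 of 13 lower in lung, among them Pf4 and Ppbp, 2 chemokines of platelet granules (-4.78 and -4.82). In bulk libraries fewer cells of a type and less RNA per cell cannot be told apart. The marker lists of other cells account for 51 of the genes called higher in lung and 12 of those called lower, and the part of other cells in the remaining calls was not tested.

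**Figure D1:**
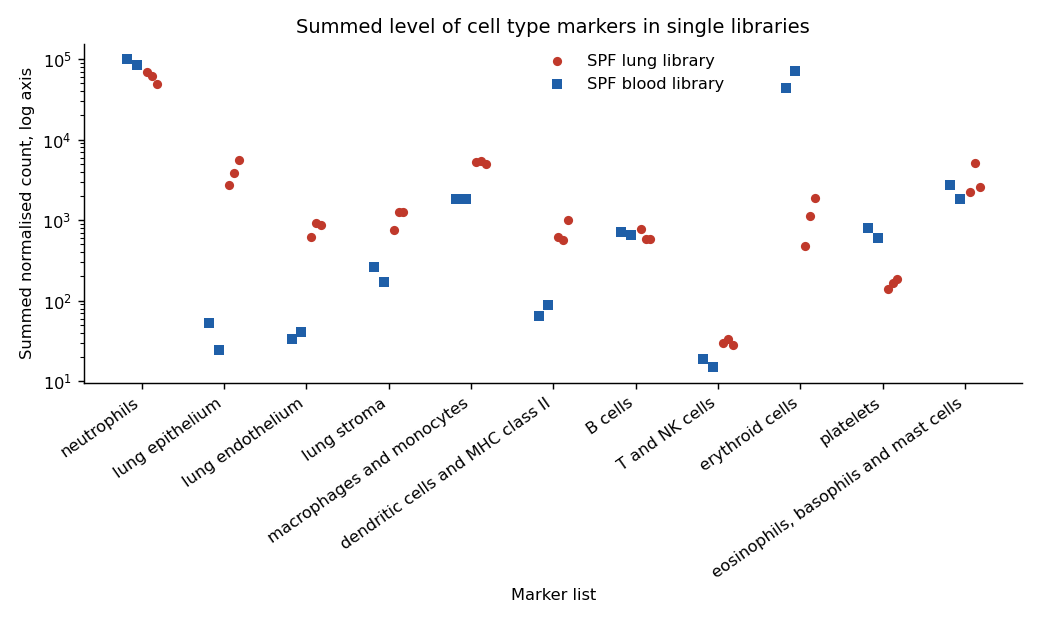
Summed normalised count of each cell type marker list (log axis) in the 3 SPF lung libraries (circles) and the 2 SPF blood libraries (squares). Epithelial markers sit between 2771 and 5620 in lung and at 53.3 or below in blood, while erythroid markers sit at 44213 or above in blood and at 1872 or below in lung.

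Of the 8299 tested genes 1585 differed between SPF lung and SPF blood (19.1%), 1035 higher in lung (12.5%) and 550 lower (6.63%). The counts of each gene list, above and below, are to be read beside these shares. The median difference was 0.16 over all tested genes, 2.42 over the higher and -1.18 over the lower genes. Of the higher genes 267 differed by 10-fold or more on the fitted scale, and of the lower genes 9. Blood held 0 reads of 177 of the genes that passed, and only 200 of the higher genes had a mean of at least 50 in blood, whereas 403 of the lower genes had a mean of at least 50 in lung. Lung and blood libraries did not overlap for 1582 of the 1585 genes, and over all tested genes every lung library lay above both blood libraries for 29.6% and below both for 23.9%.

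These counts depend on the blood libraries and on the scaling. With the 5 libraries thinned to 504208 reads each, an alternative chosen after the data were seen, 1446 genes passed, 890 higher and 556 lower. With SPF blood replicate 3 left out 704 genes passed, and with SPF blood replicate 4 left out 971, each lone blood library then being assumed to vary like the other groups. Median-ratio scaling, which moves the median difference from 0.16 to 0, gave 871 higher and 775 lower genes, so that 52.9% instead of 65.3% of the calls were higher.

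**Figure D2:**
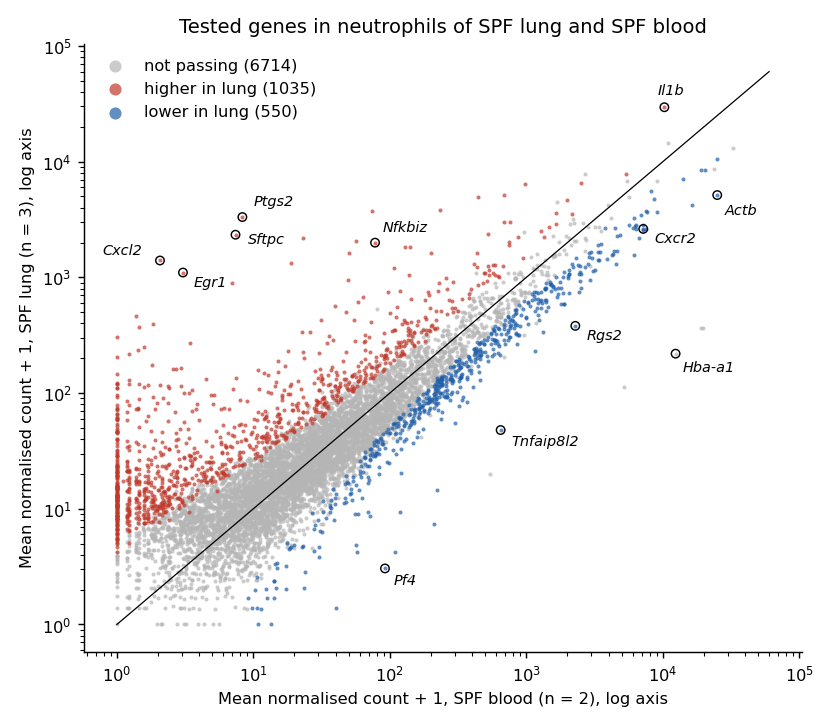
Mean normalised count plus 1 of each tested gene in SPF blood (x axis, 2 libraries) and SPF lung (y axis, 3 libraries), both log axes, with the line of equality. Red genes passed as higher in lung (1035), blue genes as lower (550), and circles mark named genes, of which Hba-a1 did not pass.

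Of 22 tested chemokines and cytokines 11 were higher in lung and 3 lower, with a median difference of 0.90. Cxcl2 (ENSMUSG00000058427, chromosome 5, 90903871 to 90905938, GRCm38), a chemokine that draws neutrophils through Cxcr2, measured 1553, 1532 and 1109 in lung and 1.35 and 0.784 in blood. Each lung library lay far above both blood libraries, which held 5 reads of the gene between them, and the difference of 9.26 (SE 0.51, adjusted p = 7.61e-14) was the largest of the 8299 tested genes. In the 3 SPF spleen libraries Cxcl2 had 0 reads, where 3 reads would have been worth 4.47 to 22.9 normalised counts. Cxcl3, a close relative, measured 67.0, 78.1 and 56.3 in lung and 0 and 0.392 in blood (5.61, adjusted p = 1.59e-07). The macrophage inflammatory proteins Ccl3 and Ccl4 were higher in lung as well (3.64 and 3.93), with lung replicate 1 highest for both. Ccl6, a chemokine of myeloid cells, was lower, at 5791, 4422 and 4119 in lung and 10372 and 6923 in blood (-0.84, adjusted p = 0.00169). Its call ended without SPF blood replicate 3 (-0.55, adjusted p = 0.156) and with quantile scaling (-0.26, adjusted p = 0.394).

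The promoter of Cxcl2 is shown because NF-kB control of this gene is textbook knowledge and its transcript differed most. The sequence is the 250 bases before the RefSeq start (GRCm38.p6, chr5:90903649-90903898, plus strand), 5′ to 3′, with the match to the NF-kB motif in capitals.
Cxcl2: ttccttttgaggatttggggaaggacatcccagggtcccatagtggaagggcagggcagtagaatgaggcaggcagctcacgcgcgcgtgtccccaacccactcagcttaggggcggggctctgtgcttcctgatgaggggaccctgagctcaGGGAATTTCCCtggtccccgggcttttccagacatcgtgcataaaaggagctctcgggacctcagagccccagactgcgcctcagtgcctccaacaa
The motif was found on both strands, 96 and 97 bases before the start, as 1 overlapping stretch, and it occurs in 7.25% of the 32817 RefSeq promoter windows of this length. The match is a description of these letters and not evidence of binding.

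The interleukin 1 genes stood at very different levels. Il1b, the secreted fever cytokine that is made as a precursor, was at 30451, 30672 and 27488 in lung and already at 10489 and 10019 in blood (1.52, SE 0.28, adjusted p = 0.00105). Il1a measured 104, 111 and 115 in lung and no read in blood, at least 175-fold higher. Il1rn, the natural antagonist of the interleukin 1 receptor, measured 1125 to 1377 in lung and 1213 and 1336 in blood, ranges that overlap (-0.00, adjusted p = 0.992). Il1r2, the decoy receptor, was higher in lung (2984 to 4268 against 1267 and 2049; 1.15, adjusted p = 0.00292). Il1r2 did not pass without SPF blood replicate 4 (adjusted p = 0.105).

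Other cytokines moved in both directions. Osm, which encodes oncostatin M, a cytokine of the interleukin 6 family, measured 2044, 2025 and 1445 in lung and 153 and 125 in blood (3.70, SE 0.48, adjusted p = 4.76e-05). Tnf was at 90.1, 79.2 and 115 in lung and 5.87 and 1.96 in blood (4.33, adjusted p = 5.43e-06). Il23a, a subunit of interleukin 23, was at 50 to 63.1 in lung and at 0 reads in blood, at least 93.2-fold higher. Csf1, the growth factor of macrophages, was higher by 1.95. Tnfsf14 (LIGHT), a ligand of the tumour necrosis factor family, ran the other way, at 96.6, 69.9 and 82.3 in lung and 383 and 355 in blood (-2.14, SE 0.24, adjusted p = 9.20e-08). Ltb (lymphotoxin beta) was lower in lung by the same test (-1.45).

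**Figure D3:**
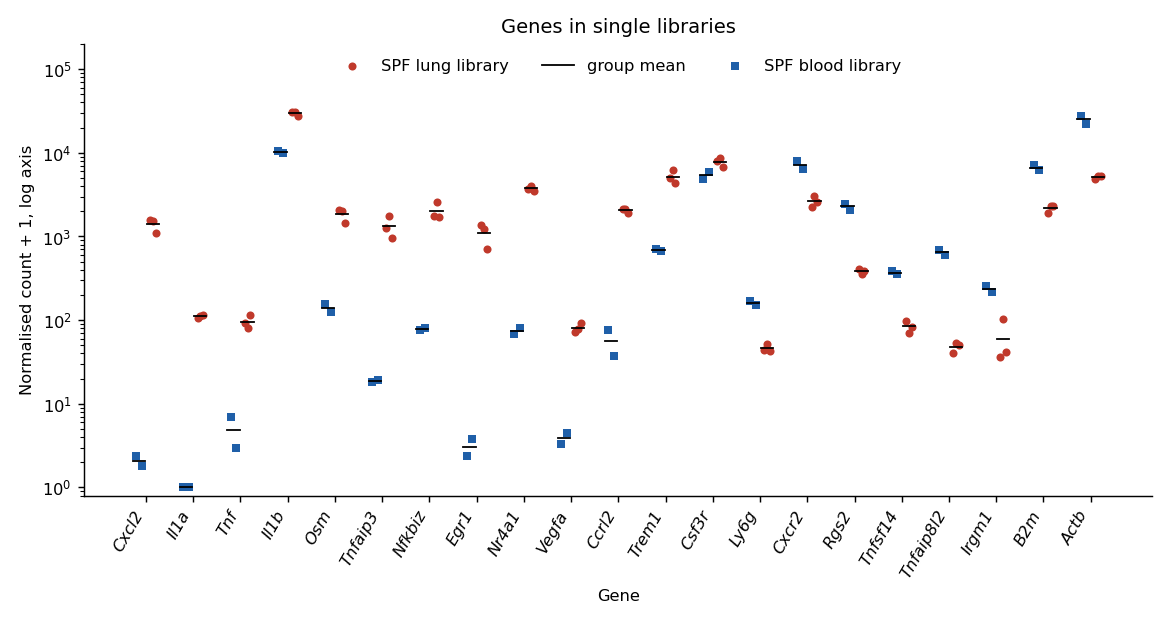
Normalised count plus 1 (log axis) of 21 genes in each SPF lung library (circles) and SPF blood library (squares), with the group mean as a bar. For each gene shown the lung libraries lie wholly above or wholly below the blood libraries, from Cxcl2 (1109 to 1553 against 0.784 and 1.35) to Actb (4888 to 5278 against 22385 and 27660). Over all tested genes they lie wholly above for 29.6% and wholly below for 23.9%.

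Among NF-kB members and feedback genes 13 of 27 were higher in lung and 1 lower, with a median difference of 1.29. The inhibitors and coregulators of the IkB family led: 4 of 6 were higher. Nfkbiz (ENSMUSG00000035356, chromosome 16, 55811375 to 55838899), a nuclear coactivator of NF-kB at secondary response genes, measured 1734, 2548 and 1700 in lung and 75.4 and 78.4 in blood (4.65, SE 0.29, adjusted p = 7.46e-13). Its relative Nfkbid was at 1122, 1327 and 1130 against 113 and 101 (3.46, adjusted p = 2.22e-09), and Nfkbia, which holds NF-kB in the cytoplasm, at 2911 to 3210 against 591 and 783 (2.15, adjusted p = 0.0108). Lung libraries lay above blood libraries for all 3 genes, as for 29.6% of all tested genes. Nfkbia did not pass without SPF blood replicate 3 (adjusted p = 0.114).

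Tnfaip3 (A20), the deubiquitinase that ends NF-kB signalling, measured 1263, 1755 and 965 in lung and 17.2 and 18.4 in blood (6.09, SE 0.37, adjusted p = 6.52e-13). Of the NF-kB subunits themselves 2 of 5 were higher, Rel (1.57) and Nfkb2 (1.39), and the differences of Nfkb1, Rela and Relb, from -0.43 to 0.17, did not pass. Irf1, an interferon regulatory factor, was the 1 lower member (-0.79, adjusted p = 0.0105). These 3 calls rest on single libraries: without SPF blood replicate 3 the adjusted p was 0.128 for Rel, 0.0697 for Nfkb2 and 0.243 for Irf1. Rel also missed the threshold without SPF blood replicate 4 (0.067) or SPF lung replicate 1 (0.0505), Nfkb2 without SPF blood replicate 4 (0.189) or SPF lung replicate 2 (0.0673) or 3 (0.0899), and Irf1 without SPF lung replicate 1 (0.0518).

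Immediate early genes were higher in lung in 18 of 32 cases and lower in 3, with a median difference of 1.64. Among AP-1 factors 5 of 8 passed as higher, including Fosb (67.6 to 147 against 1.57 and 3.16; 4.8, adjusted p = 5.14e-07) and Jun (2.19). Fos itself measured 5226, 4660 and 3579 in lung and 1481 and 1867 in blood. Every lung library was above both blood libraries, as for 29.6% of all tested genes. The difference of 1.41 had an SE of 0.62 and did not pass (adjusted p = 0.149). It passed in a fit without the spleen libraries (2.19e-06). Dusp1, the phosphatase that switches off stress kinases, also missed the threshold (1.93, adjusted p = 0.165), with 896 and 4438 in the 2 blood libraries.

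The zinc finger and nuclear receptor genes differed most. Egr1 measured 1358, 1239 and 704 in lung and 1.35 and 2.74 in blood (8.38, SE 0.61, adjusted p = 5.51e-10). Nr4a1, an orphan nuclear receptor induced by many stimuli, measured 3734, 3988 and 3534 in lung and 67.3 and 79.6 in blood (5.66, SE 0.37, adjusted p = 6.78e-10). The SPF spleen libraries had 0 to 1.49 of Egr1, where 3 reads were worth 4.47 to 22.9, and 86.4 to 122 of Nr4a1, values given without a test. The part of tissue handling in these differences was not tested. Ppp1r15a (GADD34), which restores protein synthesis after stress, was at 1374 to 2062 against 47.0 and 51.0 (4.99, adjusted p = 2.20e-06), and the pseudokinase Trib1 at 487 to 644 against 31.0 and 46.1 (3.85, adjusted p = 3.72e-10). Klf6, a zinc finger factor, and the kinase Sgk1 were lower in lung (-1.25 and -1.84).

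Btg2, an antiproliferative factor that promotes the shortening of mRNA tails, was at 7212, 7105 and 4819 in lung and 1035 and 931 in blood (2.68, SE 0.27, adjusted p = 1.40e-07). Its promoter is shown as that of an immediate early gene with high counts in both tissues: 250 bases before the RefSeq start (GRCm38.p6, chr1:134079156-134079405, minus strand), with overlapping matches to the cyclic AMP response core TGACG on both strands in capitals.
Btg2: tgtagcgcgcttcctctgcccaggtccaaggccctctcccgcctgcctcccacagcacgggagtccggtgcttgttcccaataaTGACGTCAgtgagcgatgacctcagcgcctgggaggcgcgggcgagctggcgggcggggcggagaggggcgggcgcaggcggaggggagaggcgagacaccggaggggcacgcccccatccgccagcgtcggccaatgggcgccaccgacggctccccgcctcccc
The core was found 163 and 166 bases before the start, and 17.7% of the windows hold at least 1 such match. Neither the NF-kB motif nor the AP-1 site TGANTCA, which 6.75% of windows hold, was found in this window. Nfkbid has 3 listed starts, of which only 1 was searched, and the window before it held none of the 3 motifs. Egr1 was left out of the promoter search, and Nfkbiz and Osm had no entry among the promoters.
Zfp36 (tristetraprolin) and Zc3h12a (regnase 1), which destroy cytokine mRNAs, were also higher in lung, by 1.38 (adjusted p = 6.51e-06) and 3.06 (adjusted p = 0.0018). Of the 15 tested genes of mRNA decay and the BTG family 4 were higher (26.7%) and 0 lower. Among all tested genes 12.5% were higher and 6.63% lower. Zc3h12a did not pass without SPF blood replicate 4 (adjusted p = 0.0529).

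Of 12 angiogenic and growth factors 8 were higher in lung and 0 lower, with a median difference of 3.46. Vegfa, the main growth factor of endothelium, measured 70.9, 78.1 and 90.6 in lung and 2.26 and 3.53 in blood (4.32, SE 0.52, adjusted p = 3.17e-07). Thbs1, a matrix protein that restrains vessel growth and is also stored by platelets, measured 1415, 3515 and 1575 in lung and 32.5 and 11.8 in blood (6.57, SE 0.53, adjusted p = 1.15e-06), and was highest in lung replicate 2. Plaur, the receptor of urokinase, was higher by 1.44 from 604 and 890 in blood. Nrp1 and Flt1, which bind Vegfa and are also made by endothelium, were at 66.3 to 76.9 and 29.6 to 44.8 in lung, beside endothelial markers that summed to 621 to 919. The part of endothelial RNA in these values was not tested.

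Ptgs2, the inducible cyclooxygenase, stood at 3641, 3829 and 2489 in lung and 6.77 and 7.84 in blood (8.58, SE 0.96, adjusted p = 0.000101). Ptges, which turns its product into prostaglandin E2, was at 8.16 to 9.85 against 1.35 and 2.35 (1.83, adjusted p = 0.0413). The leukotriene side differed: Alox5 was level within its spread (598 to 733 against 632 and 633; 0.03, adjusted p = 0.942), and its activating protein Alox5ap and the leukotriene B4 receptor Ltb4r1 were lower in lung (-1.08 and -1.02). Ptger2, a receptor of prostaglandin E2, was lower as well (-1.86, adjusted p = 0.00109). Of the 17 tested eicosanoid genes 3 were higher (17.6%, against 12.5% of all tested genes) and 4 lower (23.5%, against 6.63%). Of those, Ptgis (prostacyclin synthase) and Alox12 are known from endothelium or smooth muscle and from platelets. Ptges missed the threshold with any 1 of the 5 libraries left out (adjusted p from 0.076 to 0.278), and Ptger2 without SPF blood replicate 3 (0.0701). Ltb4r1 missed it without SPF blood replicate 3 (0.197) or 4 (0.0583) or SPF lung replicate 2 (0.0549).

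Receptors for chemokines, adhesion molecules and microbial products changed in both directions. Cxcr2, the receptor of Cxcl2 and the main receptor by which neutrophils leave the marrow, measured 2251, 3049 and 2569 in lung and 7877 and 6484 in blood (-1.46, SE 0.19, adjusted p = 1.20e-06). Cxcr4, which retains neutrophils in the marrow and rises as they age, had 199 to 282 in lung and 129 and 165 in blood, a difference of 0.67 that did not pass (adjusted p = 0.161, or 0.0421 without the spleen libraries in the fit). Ccrl2, an atypical receptor that binds chemerin, was at 2115, 2127 and 1894 against 75 and 36.1 (5.26, SE 0.64, adjusted p = 8.32e-05). S1pr1, which guides leukocytes out of tissue and is also an endothelial gene, measured 80.8 to 150 in lung and 0.784 and 1.35 in blood (5.66, adjusted p = 3.69e-07).

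Among adhesion genes Icam1 (2.09), Itgam (1.12), Itgal (1.12) and Itgb1 (1.69) were higher in lung. Itgam encodes CD11b, for which the cells were stained and sorted, and like Ly6g it is not counted as a finding. Selplg, the ligand of P-selectin, was lower (3582 to 4062 against 7295 and 7661; -0.99, adjusted p = 5.19e-05), a call that ended with quantile scaling (-0.30, adjusted p = 0.17). Of the 25 tested trafficking genes 10 were higher and 5 lower, with a median of 0.09. Itgam and Itgal did not pass without SPF blood replicate 3 (adjusted p = 0.0685 and 0.0761).

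Of 37 pattern recognition genes 8 were higher (21.6%, against 12.5% of all tested genes) and 4 lower (10.8%, against 6.63%). Their median difference was -0.03. Trem1, which amplifies Toll-like receptor signals, measured 4934, 6268 and 4343 in lung and 704 and 666 in blood (2.90, SE 0.21, adjusted p = 3.34e-11). Cd14, the coreceptor of endotoxin, was at 4921, 5680 and 4140 against 538 and 342 (3.50, SE 0.55, adjusted p = 0.000909). Tlr2, the receptor of bacterial lipoproteins, was at 666, 595 and 1034 against 136 and 98.0 (2.67, adjusted p = 2.98e-08). For these 3 genes the lowest lung library was above the higher blood library, as for 29.6% of all tested genes. Tlr4 itself measured 72.9 to 94.6 against 52.8 and 58.4, and its difference of 0.62 did not pass (adjusted p = 0.173). Nlrp3, the sensor of the inflammasome, was higher (2.13), whereas Myd88, the adaptor shared by most Toll-like receptors, was lower (-0.84, adjusted p = 0.0082). Myd88 did not pass without SPF blood replicate 3 (adjusted p = 0.0663) or 4 (0.0724).

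Of 25 receptors for cytokines and growth factors 7 were higher in lung (28%) and 2 lower (8%). The shares over all tested genes were 12.5% and 6.63%. Csf3r, the receptor of the granulocyte growth factor, was at 7982, 8683 and 6694 in lung and 4844 and 5930 in blood (0.53, adjusted p = 0.0319). Tnfrsf1b, a receptor of tumour necrosis factor, was at 1080 to 1527 against 403 and 470 (1.48, adjusted p = 8.59e-06). Ifnar2 and Ifngr2, subunits of the interferon receptors, were lower (-1.14 and -1.06). These transcripts include long ones, and with values centred on transcript length, an alternative chosen after the data were seen, the counts were 3 higher and 3 lower. Without SPF blood replicate 3 Csf3r, Ifnar2 and Ifngr2 missed the threshold (adjusted p = 0.347, 0.133 and 0.0624), Ifngr2 also without SPF blood replicate 4 (0.078) and Csf3r without SPF lung replicate 1 (0.0801) or 2 (0.125).

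Of 11 survival genes 4 were higher in lung and 0 lower. Pim3 and Pim1, kinases that oppose cell death, differed by 4.64 and 2.40, and Bcl2a1d, 1 of several near-identical Bcl2a1 copies whose reads are uncertain, by 1.95. Mcl1, on which neutrophil survival is known to depend, measured 406, 440 and 659 in lung and 514 and 705 in blood. These values overlap, and the difference of -0.29 did not pass (adjusted p = 0.742). Of 13 death genes 4 were higher (30.8%, against 12.5% of all tested genes) and 1 lower (7.7%, against 6.63%). Pmaip1 (NOXA), at 1.39, was among the higher genes. Pim1 did not pass without SPF blood replicate 3 (adjusted p = 0.0839), nor Bcl2a1d without SPF blood replicate 3 (0.109) or 4 (0.124) or SPF lung replicate 1 (0.0607).

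Granule proteins and other stored defence proteins were lower in lung or did not pass in the main fit. Of 19 tested members 7 were lower and 0 higher, with a median of -0.57. Lcn2, an iron-trapping protein of secondary granules, was at 802, 711 and 745 in lung and 2840 and 2017 in blood (-1.67, adjusted p = 0.0177). Slpi, an inhibitor of neutrophil proteases, was at 2483 to 3394 against 6732 and 7679 (-1.35, adjusted p = 2.83e-05), and Retnlg at 905 to 2410 against 3377 and 5337 (-1.45, adjusted p = 0.0203). Ltf, Camp and Ngp, early products of secondary granules, overlapped between the tissues, with Ngp at 242, 192 and 40.6 in lung and 65.9 and 258 in blood. No primary granule gene was tested. Under quantile scaling 2 of the 19 were lower and the median was -0.23. With length-centred values 1 was higher and 6 lower, and with the 5 libraries alone 1 was higher and 9 lower. Retnlg, however, did not pass with the 5 libraries alone (limma adjusted p = 0.0696) or with quantile scaling (0.0552). It also missed the threshold with lung and blood thinned to equal depth (0.0706) and with a replicate block (0.173). Camp passed as higher with lung and blood thinned to equal depth (1.62, limma adjusted p = 0.0262). Without SPF blood replicate 3 Lcn2 and Retnlg did not pass (adjusted p = 0.171 and 0.205), nor did Lcn2 without SPF lung replicate 2 (0.059).

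Genes of the oxidase and of phagocytosis followed a similar split, with 7 of 25 lower (28%) and 2 higher (8%). Among all tested genes 6.63% were lower and 12.5% higher. Rac2, the small GTPase of the oxidase, measured 2739, 2491 and 2479 in lung and 7802 and 6612 in blood (-1.48, SE 0.18, adjusted p = 4.68e-07). Fcer1g, the signalling chain of Fc receptors, was at 1066 to 1311 against 3041 and 3337 (-1.45, adjusted p = 9.08e-05). Fcgrt, the Fc receptor that recycles antibodies and is also made by endothelium, was higher (3.64).

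Among genes outside the marker lists that passed as lower in lung without overlap, some had a mean of at least 50 normalised counts in both tissues. Hba-a1, a marker that did not pass, is not among them. Of these genes, leaving out predicted models, the largest difference was that of Rgs2 (ENSMUSG00000026360, chromosome 1, 143999338 to 144004161), which damps signalling by G-protein coupled receptors. It measured 404, 352 and 385 in lung and 2467 and 2099 in blood (-2.58, SE 0.22, adjusted p = 5.51e-10). Actb, the cytoplasmic actin often used as a reference, was at 4888, 5278 and 5265 against 27660 and 22385 (-2.27, SE 0.51, adjusted p = 0.00957). Its near-identical relative Actg1 measured 12981 to 15685 against 8620 and 13021 and did not pass (0.45, adjusted p = 0.163), but it passed as higher with quantile scaling (1.13, adjusted p = 1.65e-06), array quality weights (0.46, 0.0321) and length-centred values (0.62, 0.0133). Reads of these paralogs may have been shared by the counting. Actb did not pass without SPF blood replicate 3 (adjusted p = 0.093).

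Tnfaip8l2 (TIPE2; ENSMUSG00000013707, chromosome 3, 95139521 to 95142360), a brake on Toll-like receptor signalling, measured 39.4, 52.4 and 48.9 in lung and 693 and 601 in blood (-3.74, SE 0.28, adjusted p = 3.39e-11). Tsc22d3 (GILZ), a target of the glucocorticoid receptor, measured 1108, 2035 and 1534 in lung and 6606 and 5588 in blood (-2.01, SE 0.47, adjusted p = 0.0123). The glucocorticoid list as a whole was mixed, with 4 of 12 higher, Per1 and Il1r2 among them, and 3 lower, and Nr3c1, the receptor, had 187 to 207 against 210 and 217 (-0.10, adjusted p = 0.811). Tsc22d3 did not pass without SPF blood replicate 3 (adjusted p = 0.11) or 4 (0.0574), nor Il1r2 without SPF blood replicate 4 (0.105).

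Of 34 genes of the actin cytoskeleton 13 were lower, among them Pfn1 (-1.30), Coro1a (-1.0) and Arpc1b, a subunit of the actin-branching Arp2/3 complex (-1.05). The membrane linkers moesin (Msn, 0.97) and vinculin (Vcl, 2.09) were higher. With quantile scaling the list held 5 higher and 7 lower genes, and Coro1a did not pass (-0.28, adjusted p = 0.244); with the 5 libraries alone it held 6 and 15. Enzymes of glycolysis were lower where they passed, such as Gapdh (1535 to 1588 against 4109 and 4426; -1.46, adjusted p = 7.56e-05), Eno1 (-1.24) and Aldoa (-1.18). By contrast the glucose transporter Slc2a3 (1.23), the lactate exporter Slc16a3 (1800 to 2672 against 417 and 638; 2.16, adjusted p = 1.43e-07) and Hif1a, the oxygen-regulated factor (1.60), were higher. In all 9 of 26 genes of hypoxia and glycolysis were lower (34.6%) and 3 higher (11.5%). The shares over all tested genes were 6.63% and 12.5%. Vcl did not pass without SPF blood replicate 4 (adjusted p = 0.0518).

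Interferon-stimulated genes were lower in lung in 22 of 52 cases and higher in 1, with a median difference of -0.91. Irf7, the master regulator of the interferon response, measured 221, 410 and 220 in lung and 696 and 679 in blood (-1.34, SE 0.29, adjusted p = 0.0015). Irgm1, a GTPase that acts on vesicles holding microbes, was at 35.5, 101 and 40.6 against 255 and 215 (-2.11, SE 0.34, adjusted p = 3.07e-05). The antiviral synthetase Oasl2 was at 359, 812 and 472 against 1330 and 1561 (-1.48, adjusted p = 0.00568). Lung replicate 2 was the highest lung library for each of these 3 genes and still lay below both blood libraries. Every lung library lay below both blood libraries for 23.9% of all tested genes. Isg15, by contrast, was at 142 to 209 against 178 and 194 (-0.19, adjusted p = 0.759). The 1 higher gene, Irf8, is also expressed by B and dendritic cells and measured 5.91 to 14.6 in lung. Oasl2 did not pass without SPF blood replicate 4 (adjusted p = 0.067), nor Irf8 without that library (0.292) or SPF lung replicate 2 (0.0523) or 3 (0.0658).

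MHC class I presentation moved with them, with 7 of 22 genes lower, 1 higher and a median of -0.66. B2m, the light chain of class I molecules, measured 1894, 2287 and 2321 in lung and 7070 and 6269 in blood (-1.62, SE 0.23, adjusted p = 8.98e-06). The immunoproteasome subunits Psmb8 and Psmb9 were lower by the same test (-1.57 and -1.59). H2-K1 and H2-D1 were lower too (-1.50 and -1.25), although class I heavy chains share much sequence and their counts are uncertain. With quantile scaling H2-D1 was at -0.18 and did not pass (adjusted p = 0.78).

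Of 78 ribosomal protein genes 5 were lower (6.4%, against 6.63% of all tested genes) and 0 higher, with a median of -0.63, and ribosomal pseudogenes make these counts uncertain. The lower genes numbered 11 with median-ratio scaling and 19 with the 5 libraries alone. Of 75 nuclear genes of oxidative phosphorylation 9 were lower (12%) and 0 higher, with a median of -0.75, among them Ndufs7 (-1.32), a subunit of complex I. Here 20 were lower with median-ratio scaling and 31 with the 5 libraries alone. The 13 proteins encoded in the mitochondrial genome ran the other way, with 11 higher, 0 lower and a median of 2.18. Of these mt-Cytb, a subunit of complex III, measured 674, 664 and 900 in lung and 103 and 89.0 in blood (2.93, SE 0.33, adjusted p = 3.01e-07), and mt-Nd1 287 to 422 against 23 and 27.4 (3.66). Nuclear copies of mitochondrial DNA make these counts uncertain. Ndufs7 did not pass without SPF blood replicate 3 (adjusted p = 0.0739).

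Transcript length moved with the difference. The longest annotated transcript had a median of 3382 bases over all tested genes, 3848 in the higher and 2118 in the lower genes. Among genes with a mean of at least 50 over both groups, in the class of transcripts up to 2200 bases 34.4% were lower and 8.6% higher, and in the class from 4761 bases up 4.12% and 17.7%. Across the 2555 genes with a mean of at least 50 over both groups, Spearman's rho of the difference with length was 0.43, a description across genes that share the same libraries. For the GF lung minus GF blood difference of the same genes rho was 0.19. With values centred on length the ribosomal median was -0.21, that of oxidative phosphorylation -0.36 with 2 higher and 3 lower, and those of the interferon, class I and mitochondrially encoded lists -0.92, -0.65 and 2.88. The part of length in the results was not tested beyond this.

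**Figure D4:**
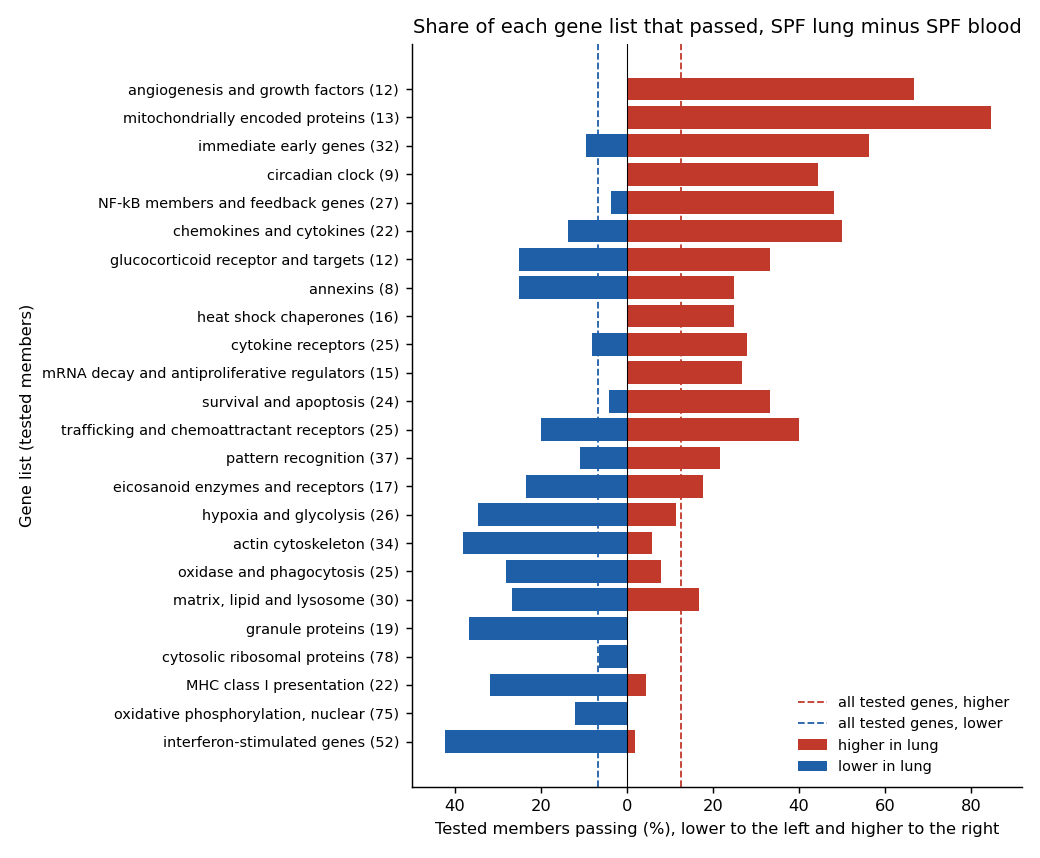
Share of the tested members of 24 gene lists (number in brackets) that passed as lower (left, blue) or higher (right, red) in SPF lung than in SPF blood, ordered by median difference, with dashed lines at 6.63% and 12.5% for all tested genes. Mitochondrially encoded, angiogenic and immediate early genes reach the highest shares on the right, and interferon-stimulated genes reach the highest share on the left.

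The same comparison in GF mice, which uses none of these 5 libraries apart from the shared estimate of spread, asked whether the lung to blood difference depends on the microbiota. In GF mice 813 genes passed (9.8%), 650 higher (7.83%) and 163 lower (1.96%). Of the genes higher in SPF lung 511 were also called higher in GF lung, which is 49.4% of the SPF list and 78.6% of the GF list, and 963 (93.0%) had the same sign. Of the genes lower in SPF lung 113 were also called lower, 20.5% and 69.3% of the 2 lists, and 506 (92%) had the same sign. The share with the same sign over all tested genes was not computed. The GF blood group includes a library of 132798 reads, so fewer calls there do not show a smaller difference.

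The test of the SPF difference against the GF difference passed for 1 gene, Malat1 (0.012% of those tested), and 623 had an unadjusted p under 0.05. Malat1 (ENSMUSG00000092341, chromosome 19, 5795690 to 5802672), a long noncoding RNA retained in the nucleus, measured 2638, 2550 and 2588 in SPF lung and 8730 and 6360 in SPF blood. In GF mice it measured 2064, 3062 and 3069 in lung and 1813 and 1241 in blood. SPF lung was lower than SPF blood (-1.52, adjusted p = 9.32e-06) and GF lung higher than GF blood (0.84, adjusted p = 0.0125), a difference between them of -2.36 (SE 0.32, adjusted p = 0.000253). The SPF blood libraries stand apart from the other 4 groups given here, SPF spleen included (1512 to 2634). Of the genes lower in SPF lung 3 were called higher in GF lung: Malat1, Parp14 and Gm37376, a predicted model that lies inside Malat1 and was named after its values were seen. The last pair did not pass the test of the difference (adjusted p = 0.154 and 0.0648). In SPF mice Parp14 missed the threshold with any 1 of the 5 libraries left out (adjusted p from 0.0684 to 0.244), and Gm37376 without SPF blood replicate 3 (0.187) or SPF lung replicate 3 (0.0503). The Malat1 difference passed with each lung or blood library of either status left out (adjusted p from 6.09e-05 to 0.0293), but not without the trended prior of limma (0.781), with length-centred values (0.169) or with a replicate block (0.171).

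Irf7 had the smallest p of this test among listed genes, with -1.34 in SPF and 0.42 in GF mice, but its difference of -1.76 did not pass (adjusted p = 0.154). For the interferon list the median difference was -0.91 in SPF and -0.03 in GF mice, for class I presentation -0.66 and 0.06, for mitochondrially encoded genes 2.18 and 3.51, and for the NF-kB list 1.29 and 0.77. No member of these lists passed the test of the difference between SPF and GF mice, so none is shown to depend on the microbiota.

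**Figure D5:**
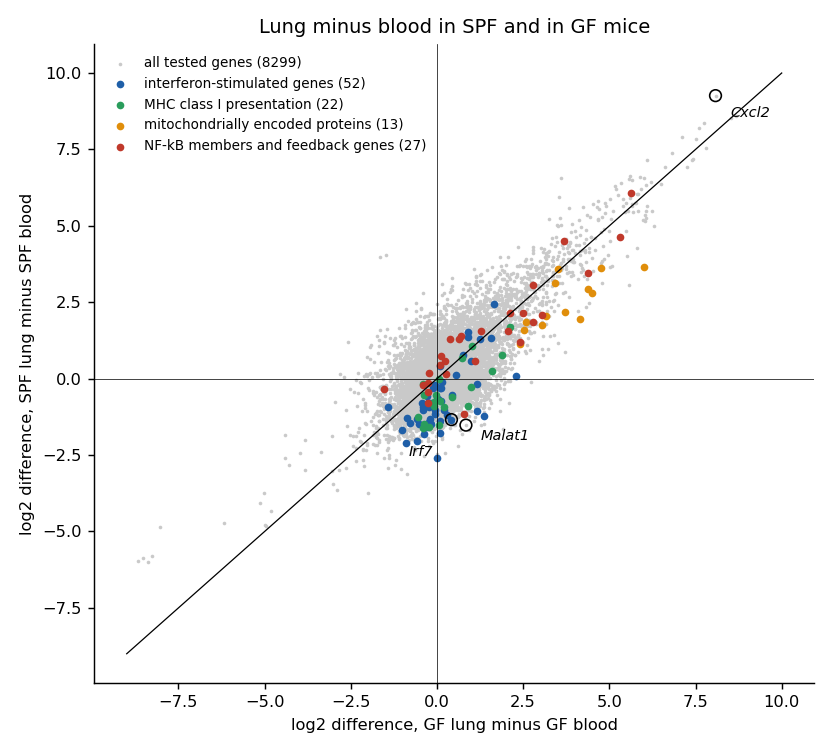
Difference of lung minus blood (log2) for each tested gene in GF mice (x axis) and SPF mice (y axis), with the line of equality and 4 gene lists in colour. Interferon-stimulated genes (blue) centre on -0.91 in SPF and -0.03 in GF mice, and Malat1 (circled) lies at 0.84 in GF and -1.52 in SPF mice.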

How the data were processed

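RNA from Ly6G+ sorted neutrophils was amplified, sequenced and deposited as 1 table of 10296 genes in 16 libraries. Per the submitters' processing notes the tools were CASAVA, RSEM 1.3.1 and limma, with mm10. The deposited values are a normalised signal: they behave as an expected read count plus 0.5, divided by an effective library size and scaled to 1000000, a reading taken from the values, since the step is not given in the sources used here. In the 5 SPF lung and blood libraries 91.4% to 95.2% of low values came within 0.05 of whole reads, so totals (504208 to 3033941) are estimates.

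The main fit was limma 3.58.1 (R 4.3.3) on log2(value + 1), with a mean for each of 6 groups over all 16 libraries, a trended robust prior, 10 residual degrees of freedom and Benjamini-Hochberg adjustment, at 0.05. The filter asked for 10 or more in 2 or more libraries and left 8299 genes, without 1997. The script was tested on simulated data. The members and gene lists were chosen with earlier results of these data known. Named genes were members of the lists, the 15 largest differences each way that passed without overlap between lung and blood and had a mean of at least 10 in the higher group (also, outside marker lists, with at least 50 in the lower group), and the 10 of smallest p between SPF and GF mice, leaving out predicted models except Gm37376. Coordinates are GENCODE M21 (GRCm38; 10275 of 10296 identifiers matched), and promoters are RefSeq (GRCm38.p6). Intervals and floors cover counting error only. The counts were not stated to use strand, so overlapping and antisense genes cannot be told apart. Alternatives covered the pseudocount, filter, scaling, prior, weights, libraries, depth and pairing.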

Additional observations from a re-analysis of the deposited data

Results flagged for a closer look

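Malat1 was the 1 gene whose difference between lung and blood differed between SPF and GF mice by the test of that difference, at -2.36 on the log2 scale (SE 0.32, limma adjusted p = 0.000253). It was lower in lung than in blood in SPF mice and higher in GF mice. The value lay between -1.95 and -2.63 under all settings that gave one, and it did not pass without a trended prior (adjusted p = 0.781), with a replicate block (0.171) or with length-centred values (0.169).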

How the results depend on the processing

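Of the 110 named genes that passed, 72 passed under every setting that tested them, and 1, Tfrc, changed sign (-0.26 with lung and blood thinned). Among settings that keep every library, 18 calls ended with that thinning, 12 with no trended prior, 10 with length-centred values and 9 with quantile scaling. The count of 1585 genes (1035 higher, 550 lower) was 921 with a limit of 100 on low values (416 higher), 2707 with array quality weights (1719 and 988), 3109 with voom weights (1932 and 1177), 2489 with only these 5 libraries (947 lower), 2628 without libraries under 250000 reads (1657 and 971), and 813 with lung and blood thinned to 132798 reads (463 and 350). Lower genes numbered 309 with no trended prior and 855 without the spleen libraries. With 1 SPF lung or blood library left out the counts ran from 704 to 1304 in all, from 549 to 873 higher and from 155 to 431 lower, the lowest without SPF blood replicate 3. With 1 GF lung or blood library left out 1453 to 1628 genes passed. For the test of SPF against GF mice, 3 genes passed with no filter, 2 with TMM scaling, 0 with no trended prior or with length-centred values, 37 with array quality weights, 67 with voom weights, 51 without the spleen libraries, 18 without libraries under 250000 reads, 22 with thinned libraries, and 1 to 28 with 1 lung or blood library of either status left out (28 without GF blood replicate 2). The cause was not tested.

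SPF lung and blood share replicate number 3 alone, and those libraries did not deviate together (correlation -0.044). That value cannot show whether they came from the same mouse, which the labels do not state, and the main fit did not pair them. With a replicate block, which leaves 4 residual degrees of freedom, 988 genes passed (284 lower), 12 named calls ended and 0 passed in the test of SPF against GF mice.

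Genes that did not pass changed sign as follows. Alox5 was at -0.14 with median-ratio scaling, -0.02 with TMM, -0.11 and -0.00 with the thinned libraries, -0.29 length-centred, -0.12 with the replicate block and as low as -0.06 with 1 library left out. Il1rn was at 0.27 with quantile scaling, 0.01 with either set of weights or SPF thinning, 0.11 with the replicate block and up to 0.08 with 1 library left out. Isg15 was at 0.45 and Ngp at 0.36 length-centred, and Mcl1 at 0.41 with the replicate block. With lung and blood thinned Ngp was at 0.24, Nr3c1 at 0.26, Rela at 0.03 and Relb at -0.04. Relb was at -0.30 with SPF thinning and -0.07 length-centred. With 1 library left out Ltf reached -0.30, Relb -0.12 and Ngp 0.91, and at the other end of their ranges 2.9, 0.46 and -1.04.

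The length-centred values and the thinning of the SPF libraries were chosen after the data were seen. The edgeR and DESeq2 alternatives were not run, because too few low values came out as whole reads. A lung gene at 0 reads can hold up to 1.29 normalised counts, and a blood gene up to 0.63, over the pooled libraries.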
